A study of Mus musculus with 12 samples.

Results

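The genes described here encode the subunits of the proteasome and its activators. They were taken from the array by name, as every gene called Psma, Psmb, Psmc, Psmd or Psme followed by a number, apart from Psmb8, Psmb9 and Psmb10, the inducible catalytic subunits. The rule found 40 of 31791 gene names: 8 alpha and 8 beta subunits of the core, 6 ATPases and 3 other base subunits of the regulatory particle, 8 lid subunits, 3 regulatory particle chaperones and 4 activators. A gene with several probes (10 of the 40) was represented by the probe with the highest mean signal over the 12 arrays. The accession of each of the 40 probes names the same gene in RefSeq. Psmb11, the catalytic subunit of the thymus, was not well above background on any array and was not tested, which left 39 subunits.

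The proteasome degrades proteins that carry ubiquitin chains. Its core is a stack of rings in which beta subunits hold the proteolytic sites and alpha subunits gate the entry, and the regulatory particle on its ends binds the chain, removes it and unfolds the substrate with a ring of ATPases. Psme1 and Psme2 form an alternative cap that is known to be induced by interferon together with Psmb8, Psmb9 and Psmb10, and that opens the core without ubiquitin recognition, which bears on the peptides macrophages present on MHC class I.

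RNA came from bone marrow cells of 2 wildtype and 2 Commd1 knockout mice, grown for 10 days with 20 ng/ml GM-CSF and labelled as bone marrow derived macrophages. COMMD1 is a protein of endosomal sorting that is also known to promote degradation of the NF-kB subunit RelA. Cells of each mouse were divided into an untreated sample and samples treated with 10 ng/mL lipopolysaccharide (LPS, a bacterial cell wall component) for 3 h or 24 h. The 6 groups are therefore wildtype untreated, wildtype LPS 3 h, wildtype LPS 24 h, and the same for the knockout, each of 2 samples from 2 mice that are numbered as replicates 1 and 2. GM-CSF was present in the culture of all groups. How the knockout was made, and the strain and age of the mice, were not given in the sources used here.

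Each sample was on its own array, and 59.2% to 72.9% of the probes were well above background, with fewer in the knockout than in the wildtype at each time. The arrays lay on 3 slides with 1 time each, so a time of LPS and its slide cannot be told apart. Wildtype and knockout took fixed positions on each slide, and these 2 cannot be told apart either. Levels below are log2 processed signals minus the 75th percentile of the array. Replicates correlated with Pearson's r of 0.994 to 0.9965 across genes, and no member was saturated. The slope of the spike-in signals, relative to the arrays' mean, was 0.956 to 0.965 in wildtype without LPS and at 3 h, 1.002 to 1.006 in knockout at those times, and 1.019 to 1.021 in wildtype and 1.038 to 1.059 in knockout at 24 h. Knockout 24 h replicate 1 had 589 outlier spots against 132 to 214 on the other arrays. The part of either in the results was not tested. Commd1 was lower in the knockout by 3.01 ± 0.23 (SE) on the log2 scale without LPS (adjusted p = 0.00165, limma), which checks the labels. All 10 macrophage markers were above background on all arrays. Their summed linear level (1 is the 75th percentile of an array) was 320 to 337 in untreated wildtype, 431 to 438 at 3 h and 454 to 462 at 24 h. In the knockout it was 374 to 381, 482 to 560 and 390 to 414. Dendritic cell markers, of which 3 of 6 were above background on all arrays, summed to 4.89 to 5.12 in untreated wildtype and 1.80 to 2.27 in untreated knockout. After LPS those sums were 6.93 to 8.07 and 5.89 to 6.79 at 3 h, and 1.49 to 1.52 and 0.993 to 1.13 at 24 h. Neutrophil markers, 5 of the 6 measured above background on all arrays, summed to 20.4 to 25.7 without LPS and at 24 h, and to 11.8 to 17.1 at 3 h. Elane made up nearly all of this sum, with log2 means of 4.46 in untreated wildtype and 4.05 at 3 h. In wildtype the dim Camp, Ngp and Ltf read higher at 3 h (-2.12, -3.98 and -3.45) than untreated (-3.32, -4.61 and -4.04). Mpo read lower there (-5.74 against -5.14). B cell markers (2 of 5 on all arrays) summed to 0.757 to 0.826 in untreated wildtype and 1.61 to 1.67 in untreated knockout, and to 0.457 to 0.840 after LPS. T and NK cell markers summed to 4.15 to 6.14. Of these 7, Cd4 and Cd3e were above background on all arrays and Cd3g and Cd8a on none. Of 6 mast cell, basophil and eosinophil markers none was above background on all arrays, with sums of 0.0202 to 0.463 and with Cpa3, Ms4a2 and Epx on no array. Of 5 erythroid markers, which summed to 0.0497 to 0.0751, Hba-a1 was above background on all arrays and Alas2 on none. The part of the cell makeup in the results was not tested, and in such bulk samples fewer cells of a type and less RNA per cell cannot be told apart.

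Most proteasome subunits were higher after 24 h of LPS than without it, in both genotypes. In wildtype cells 31 of the 39 subunits were higher at 24 h than without LPS and 1 was lower, with a median log2 change of 0.61. Over all 23004 genes tested in this comparison 23.6% were higher, 26.4% were lower, and the median change was -0.04 (limma, Benjamini-Hochberg adjusted p under 0.05). In knockout cells 34 of 39 were higher and 1 was lower, with a median of 0.90, where 26% of all genes were higher, 31.5% were lower, and the median was -0.07. The same 31 subunits rose in both genotypes. The subunit that fell in both was Psma8, an alpha subunit known from the testis, whose probe was dim (log2 level -4.50 to -6.33) and above background on 11 of 12 arrays. It fell by 1.17 in wildtype and by 1.21 in knockout cells, but was not called with normexp background correction, and in the knockout at 24 h only 1 of 2 arrays measured it above background.

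**Figure D1:**
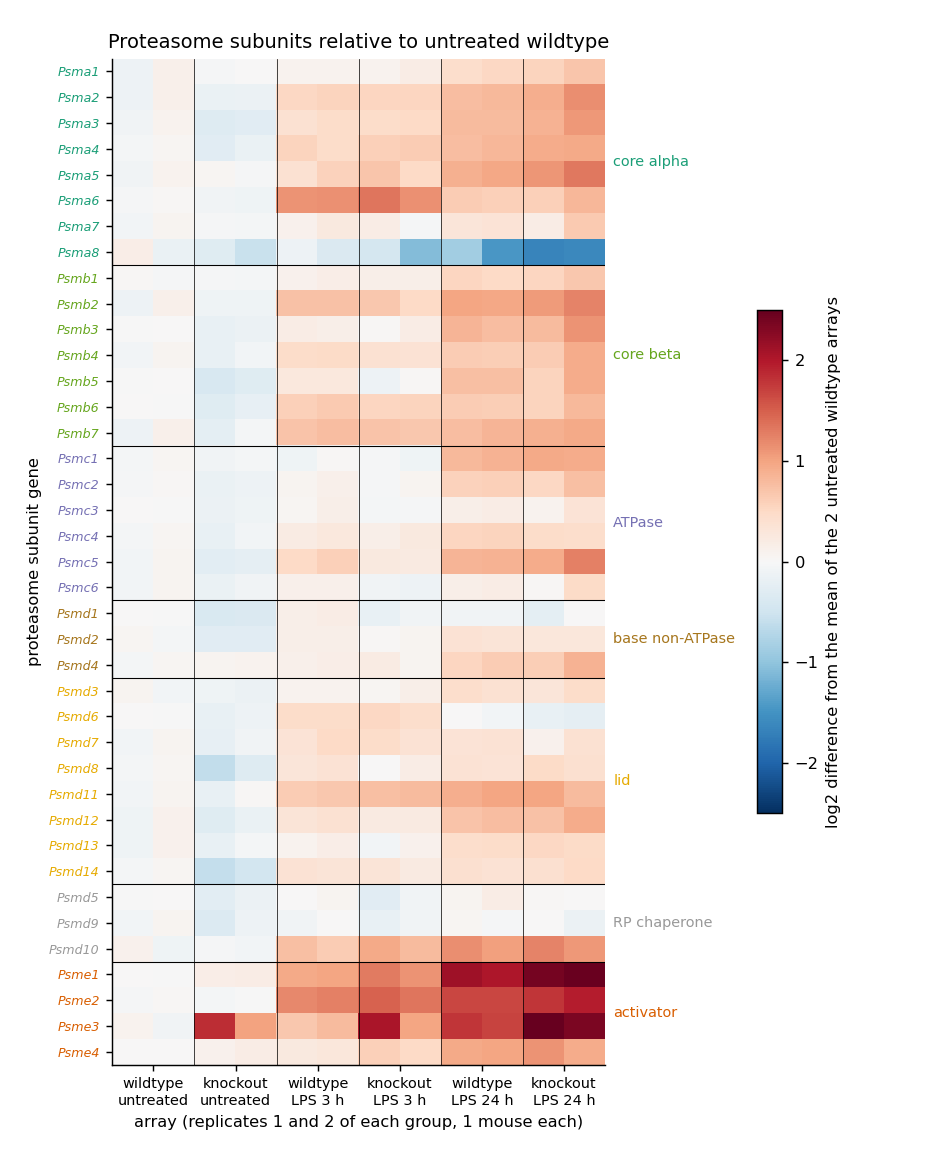
Log2 difference of each of the 39 tested proteasome subunits (rows, ordered and coloured by role) from the mean of the 2 untreated wildtype arrays, on each of the 12 arrays (columns). The activators reach the strongest red at 24 h in both genotypes, Psma6 is redder at 3 h than at 24 h, Psma8 turns blue, and Psme3 is already red in the untreated knockout samples.

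After 3 h, 21 of 39 subunits were higher in wildtype cells and none was lower, with a median log2 change of 0.33 (23.2% of all genes were higher and 23.4% lower, median 0.03). In knockout cells 22 of 39 were higher and none lower, with a median of 0.41 (26.4% of all genes higher and 25.7% lower, median 0.06). The call was shared for 21 subunits, and the other, Psmd2, a scaffold of the base, had a change of 0.33 ± 0.07 in knockout, which was called, and of 0.16 ± 0.07 in wildtype, which was not. The difference between these was 0.17 (adjusted p = 0.57), and with quantile normalization the knockout change was -0.04. The 3 h counts depended on how the arrays were scaled. With quantile normalization they were 12 higher and 3 lower in wildtype (median 0.06) and 16 higher and 3 lower in knockout (median 0.11). At 24 h quantile normalization gave 28 higher and 1 lower in wildtype (median 0.51) and 29 higher and 1 lower in knockout (median 0.72). The wildtype 3 h count also fell to 12 without untreated replicate 1 and to 13 without 3 h replicate 2. Of the 39 subunits, 21 lay in the brightest 10% of all genes by signal, whose median change was 0.22 in wildtype and 0.21 in knockout at 3 h, and 0.03 and 0.13 at 24 h.

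**Figure D2:**
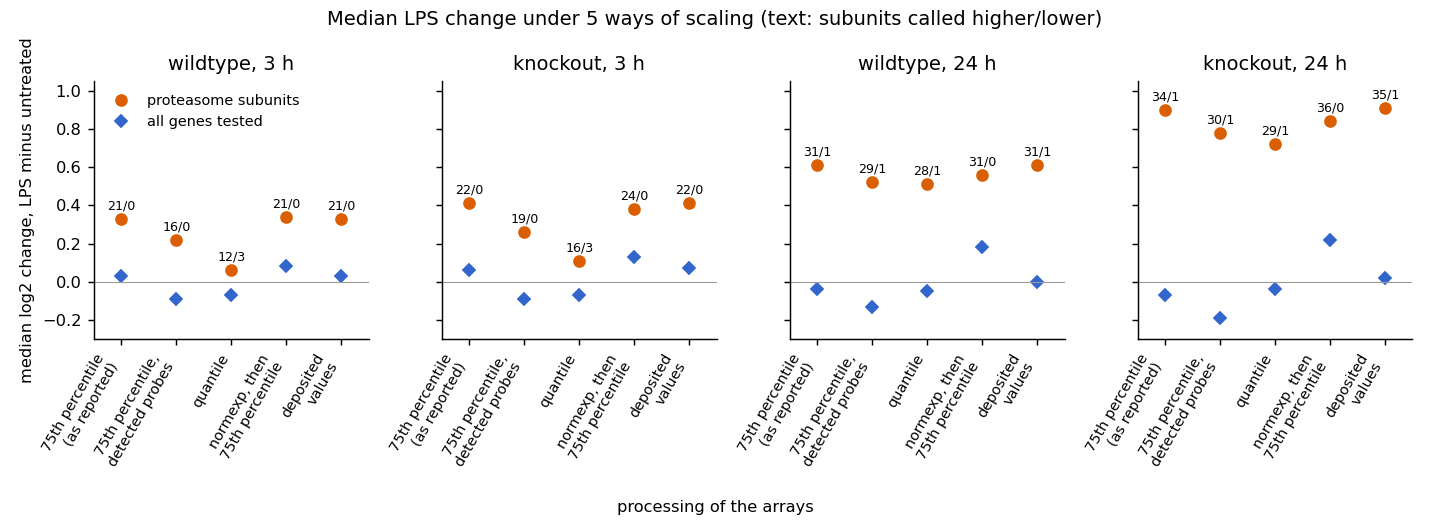
Median log2 LPS change of the 39 proteasome subunits (circles) and of all genes tested (diamonds) in each genotype and time, under 5 ways of processing the arrays. Numbers above the circles are subunits called higher and lower. The subunit median lies above that of all genes in every panel, by least with quantile normalization at 3 h (0.06 against -0.07 in wildtype) and by more at 24 h.

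The alpha subunits of the core form its outer rings, and 5 of 8 were higher at 3 h and 6 of 8 at 24 h in wildtype cells (median log2 change 0.44 and 0.70). The wildtype shares of all genes higher at these times were 23.2% and 23.6%. Psma5 had levels of 4.68 and 4.87 without LPS, 5.15 and 5.35 at 3 h, and 5.66 and 5.75 at 24 h in wildtype. The 3 groups did not overlap, and the change at 24 h was 0.93 ± 0.12 (adjusted p = 0.000369). In the knockout, Psma3 had the largest alpha subunit change at 24 h, from 4.19 and 4.23 to 5.37 and 5.58, an increase of 1.26 ± 0.10 (adjusted p = 1.71e-05). Psma2, Psma3 and Psma4 rose by 0.79 to 0.80 in wildtype and by 1.16 to 1.26 in knockout cells at 24 h. Psma1 was called at 24 h only and not at 3 h, with 0.47 in wildtype and 0.64 in knockout. Psma7 passed the test in the knockout alone (0.45, against 0.32 with adjusted p = 0.11 in wildtype), and the difference between genotypes was 0.13 (adjusted p = 0.824).

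All 7 tested beta subunits were higher at 24 h in both genotypes, with a median change of 0.75 in wildtype and 1.06 in knockout. Beside them, 23.6% of all genes were higher in wildtype and 26% in knockout. The beta subunits include Psmb5, Psmb6 and Psmb7, which carry the proteolytic sites of the standard core. Psmb5, the chymotrypsin-like subunit, had wildtype levels of 5.58 and 5.59 without LPS, 5.84 and 5.85 at 3 h, and 6.34 and 6.33 at 24 h. Its replicates lay close together and its groups did not overlap, and on this probe the 24 h change passed the test (0.75 ± 0.12, adjusted p = 0.0012) and the 3 h change did not (0.26). A second Psmb5 probe also passed at 3 h, with 0.38 in wildtype and 0.48 in knockout (adjusted p = 0.0284 and 0.0095). Psmb7, the trypsin-like subunit, was already higher at 3 h by 0.74 and stood at 0.80 at 24 h in wildtype. Psmb6, the caspase-like subunit, showed the same early course, with 0.63 at both times. Psmb2 had the largest beta subunit change, from 1.29 and 1.53 to 2.39 and 2.37 in wildtype (0.97 ± 0.11) and from 1.30 and 1.31 to 2.47 and 2.65 in knockout (1.26 ± 0.11). Psmb1 and Psmb3 were called at 24 h only in both genotypes.

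The ATPases, which unfold the substrate, had small median changes at 3 h, 0.12 in wildtype and 0.13 in knockout. In each genotype 2 of 6 were higher (Psmc4 and Psmc5), near the shares of all genes (23.2% in wildtype and 26.4% in knockout). At 24 h 4 of 6 were higher in wildtype (median 0.56) and 6 of 6 in knockout (median 0.67). The shares of all genes higher at 24 h were 23.6% and 26%. Psmc5 rose from 2.38 and 2.5 to 3.29 and 3.30 in wildtype, and from 2.17 and 2.22 to 3.36 and 3.70 in knockout (0.86 ± 0.12 and 1.33 ± 0.12). Psmc1, whose tail helps open the gate of the core, was level until 3 h and then rose, as described below. Psmc3 and Psmc6 passed the test only in the knockout, with 0.35 and 0.38 against 0.17 and 0.16 in wildtype, and neither difference between genotypes was called (adjusted p = 0.584 and 0.655). With quantile normalization the ATPase median at 3 h was -0.13 in wildtype and -0.18 in knockout, so the direction of this class at 3 h depended on the scaling.

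Among the other base subunits, Psmd4, a ubiquitin receptor, was higher at 24 h by 0.58 in wildtype and 0.67 in knockout, and Psmd2 by 0.34 and 0.56. Psmd1, the largest scaffold of the base, was not called in any LPS comparison. Its wildtype levels were 4.76 and 4.74 without LPS, 4.89 and 4.93 at 3 h and 4.66 and 4.67 at 24 h, a change of -0.08 ± 0.09 at 24 h (95% interval -0.30 to 0.13).

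Of the lid subunits, 6 of 8 were higher at 3 h and 7 of 8 at 24 h in both genotypes. Their median was 0.35 at 3 h and 0.40 at 24 h in wildtype, and 0.56 and 0.76 in knockout. Psmd11, which clamps the lid to the core, had the largest wildtype change, from 1.76 and 1.89 to 2.45 and 2.5 at 3 h and 2.73 and 2.81 at 24 h (0.95 ± 0.11 at 24 h, adjusted p = 0.000161). Psmd12 had the largest lid change in the knockout at 24 h, from 3.59 and 3.73 to 4.63 and 4.82 (1.06 ± 0.11). Psmd14, the enzyme that cuts off ubiquitin chains, rose by 0.38 ± 0.09 in wildtype and by 0.98 ± 0.09 in knockout at 24 h. Psmd7, its inactive partner, rose by 0.36 and 0.38.

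The 3 chaperones that help assemble the base behaved unequally. Psmd10, also known as gankyrin, rose from 1.38 and 1.18 to 2.04 and 1.92 at 3 h and to 2.45 and 2.31 at 24 h in wildtype (1.10 ± 0.11 at 24 h, adjusted p = 8.46e-05), and by 1.2 in knockout cells. A second Psmd10 probe rose by 1.19 at 3 h and 0.96 at 24 h in wildtype. From 3 h to 24 h it moved by -0.23 in wildtype and -0.09 in knockout (neither called), so the step that the first probe showed there (0.40 and 0.29) was not shared. Psmd5 and Psmd9 were not called in any LPS comparison, with changes from -0.04 to 0.22. A second Psmd9 probe disagreed with the chosen one, and was lower by 0.34 in wildtype and by 0.48 in knockout at 3 h (adjusted p = 0.0177 and 0.0025).

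**Figure D3:**
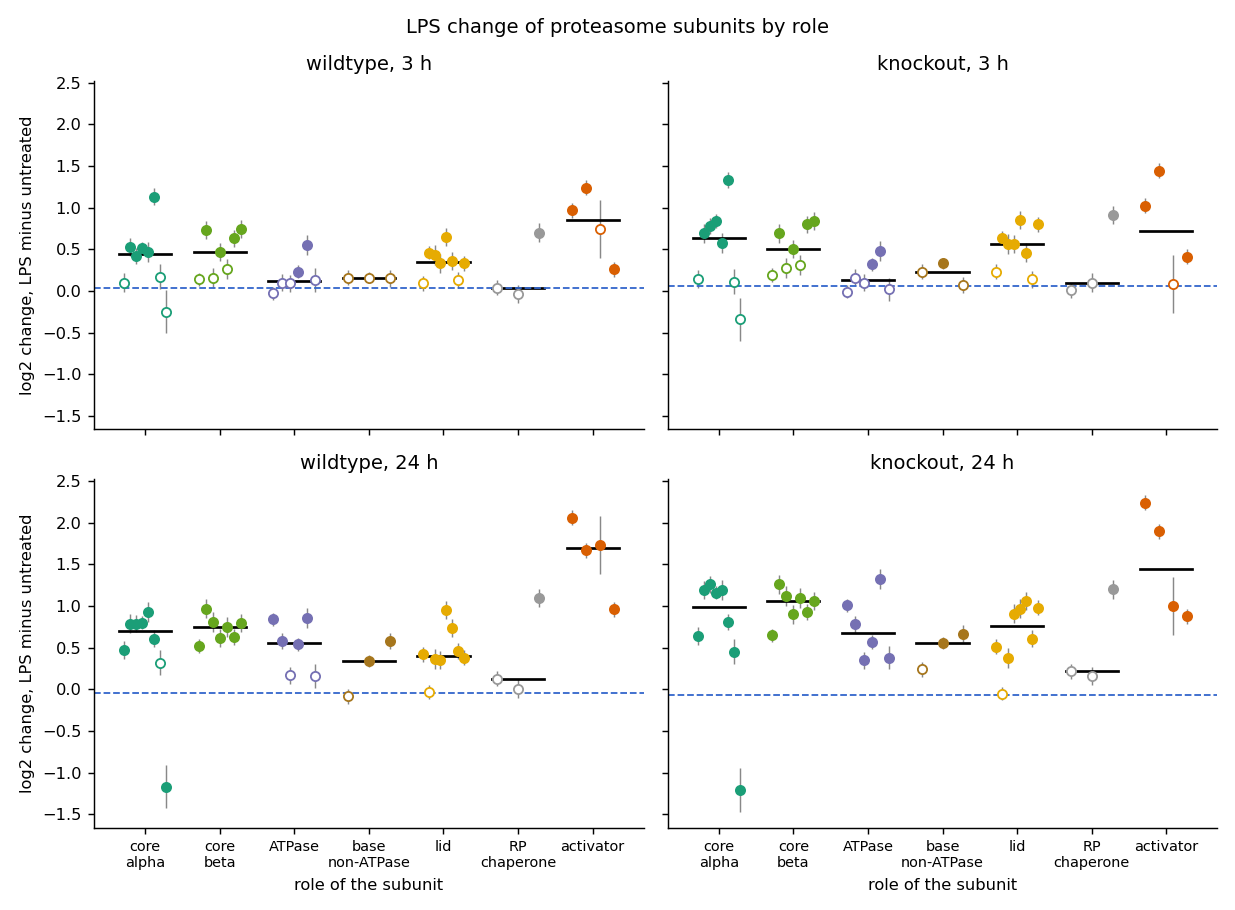
Log2 change with LPS of each proteasome subunit (point, with its standard error from the fit over 12 arrays) by role, for each genotype and time. Filled points passed the test, open points did not, black bars are medians over the role, and the dashed line is the median of all genes tested. At 24 h the activators have the highest median (1.70 in wildtype, 1.45 in knockout), and the core beta subunits are all filled.

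The 4 activators cap the core in place of, or beside, the regulatory particle, and they had the highest median of the role classes at 24 h, 1.70 in wildtype and 1.45 in knockout. The probes that read them are shown because the Psme3 result rests on 1 of them (each 60 bases, 5′ to 3′, from the scanner files; capitals mark runs of at least 4 TG pairs). In mm9 they lie at chr14:56200194-56200253 (+) for Psme1, chr14:56206296-56206355 (-) for Psme2, chr11:101184289-101184348 (+) for Psme3 and chr11:30756055-30756114 (+) for Psme4.
Psme1 probe: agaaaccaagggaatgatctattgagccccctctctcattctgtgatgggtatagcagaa
Psme2 probe: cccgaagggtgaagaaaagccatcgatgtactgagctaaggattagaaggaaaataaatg
Psme3 probe: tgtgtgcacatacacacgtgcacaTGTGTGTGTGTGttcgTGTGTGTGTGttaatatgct
Psme4 probe: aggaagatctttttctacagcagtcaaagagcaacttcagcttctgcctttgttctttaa

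Psme1 had wildtype levels of 3.31 and 3.30 without LPS, 4.26 and 4.29 at 3 h, and 5.42 and 5.32 at 24 h. Knockout levels were 3.48 and 3.50, 4.61 and 4.42, and 5.69 and 5.78. It increased at each step in both genotypes and no groups of a genotype overlapped. The change at 24 h was 2.06 ± 0.09 in wildtype (4.18-fold, adjusted p = 7.42e-07) and 2.24 ± 0.09 in knockout (4.72-fold, adjusted p = 3.74e-07). Psme2, its partner in the same ring, was also higher at both times. In wildtype it went from 5.35 and 5.40 to 6.58 and 6.64 at 3 h and 7.05 and 7.04 at 24 h. The knockout values were 5.33 and 5.36, then 6.85 and 6.71, then 7.17 and 7.33. On the chosen probe most of the Psme2 change was in place by 3 h (1.24 of 1.67 in wildtype and 1.44 of 1.90 in knockout). The 2 other Psme2 probes gave 1.38 and 1.17 at 3 h and 2.12 and 2.06 at 24 h in wildtype, so the probes agreed in direction but not in size. The second of these was weaker (mean log2 signal 9.76 against 17.4 for the chosen probe) and could not be matched to a RefSeq gene.

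Psme3 encodes a nuclear activator that binds the core as a ring of its own. Its wildtype levels were 3.20 and 3.02 without LPS, 3.79 and 3.90 at 3 h, and 4.89 and 4.79 at 24 h, and the 24 h change was 1.73 ± 0.35 (adjusted p = 0.0036). Knockout replicate 1 read 4.96, 5.15 and 5.61 and replicate 2 read 4.11, 4.09 and 5.47 at the same times. The knockout mice thus differed from each other without LPS and at 3 h, and were close at 24 h. The knockout change was 0.08 ± 0.35 at 3 h and 1.00 ± 0.35 at 24 h (adjusted p = 0.859 and 0.0367). The difference in the LPS response between genotypes was -0.73 ± 0.49 at 24 h (adjusted p = 0.544). The TG run of 12 bases is the longest among the probes chosen for 39 of the members, and no other Psme3 probe is on the array. Psme4, a large single-chain activator, was at -0.95 and -0.95, -0.70 and -0.67, and -0.01 and 0.03 in wildtype and at -0.85 and -0.77, -0.36 and -0.46, and 0.17 and -0.03 in knockout. Its change was small at 3 h (0.26 and 0.41) and larger at 24 h (0.96 ± 0.09 and 0.88 ± 0.09), and it did not differ in call between genotypes. A second, dimmer Psme4 probe gave another time course, with 1.01 ± 0.35 in wildtype (adjusted p = 0.0432) and 0.85 ± 0.35 in knockout (not called) already at 3 h, and 0.05 and 0.08 from 3 h to 24 h.

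**Figure D4:**
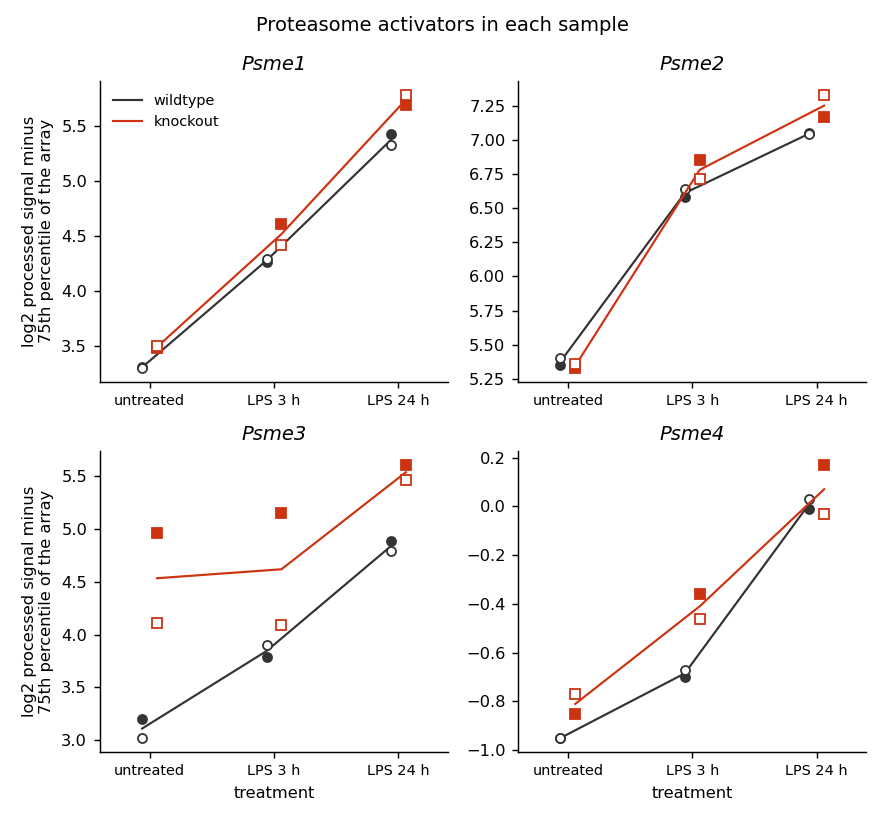
Log2 level (processed signal minus the 75th percentile of the array) of the 4 activators in each sample by treatment. Black circles are wildtype and red squares knockout, filled for replicate 1 and open for replicate 2, lines join the group means, and each panel has its own scale. Psme1 and Psme4 climb to 24 h, Psme2 has most of its change by 3 h, and the 2 knockout mice are apart in Psme3 until 24 h.

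The subunits fell into several time courses. In wildtype 20 of 39 were called higher at both times, 11 at 24 h only, 1 at 3 h only and 7 at neither, where the shares of all genes were 12.4%, 11.2%, 10.8% and 65.6%. In knockout the counts were 21, 13, 1 and 4, and the shares of all genes 14.1%, 12%, 12.4% and 61.6%. These counts rest on the chosen probes, and Psmb5 would count at both times by its second probe. From 3 h to 24 h 20 of 39 rose and 3 fell in wildtype (25.7% of all genes rose and 26.9% fell), and 25 rose and 3 fell in knockout (26.3% and 32.6% of all genes). The wildtype count of 20 was 9 to 12 when 1 of the wildtype 3 h or 24 h samples was left out, and the knockout count of 25 was 11 when only the 2 groups compared were fitted. Between 3 h and 24 h the subunits that fell were Psma6, Psmd6 and the dim Psma8, in both genotypes.

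Psma6, an alpha subunit of the core, peaked at 3 h. Its wildtype levels were 3.69 and 3.74, then 4.84 and 4.85, then 4.34 and 4.31, and its knockout levels were 3.63 and 3.61, then 5.06 and 4.85, then 4.32 and 4.54. The groups of each genotype did not overlap. It rose by 1.13 ± 0.10 and 1.33 ± 0.10 at 3 h and fell by 0.51 and by 0.52 from 3 h to 24 h (adjusted p = 0.00324 and 0.00245). Psmd6, a lid subunit, rose by 0.46 and 0.64 at 3 h and was back at its untreated level by 24 h, with levels of 2.92 and 2.9, 3.37 and 3.37, and 2.91 and 2.84 in wildtype. Its change at 24 h was -0.03 ± 0.08 in wildtype and -0.05 ± 0.08 in knockout. The opposite course was that of Psmc1, with wildtype levels of 5.04 and 5.13, 4.98 and 5.12, and 5.90 and 5.96. Its change was -0.03 ± 0.08 at 3 h and 0.84 ± 0.08 at 24 h in wildtype (adjusted p = 0.765 and 7.84e-05), and -0.01 and 1.01 in knockout. A second Psmc1 probe gave 0.89 in the knockout at 24 h.

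**Figure D5:**
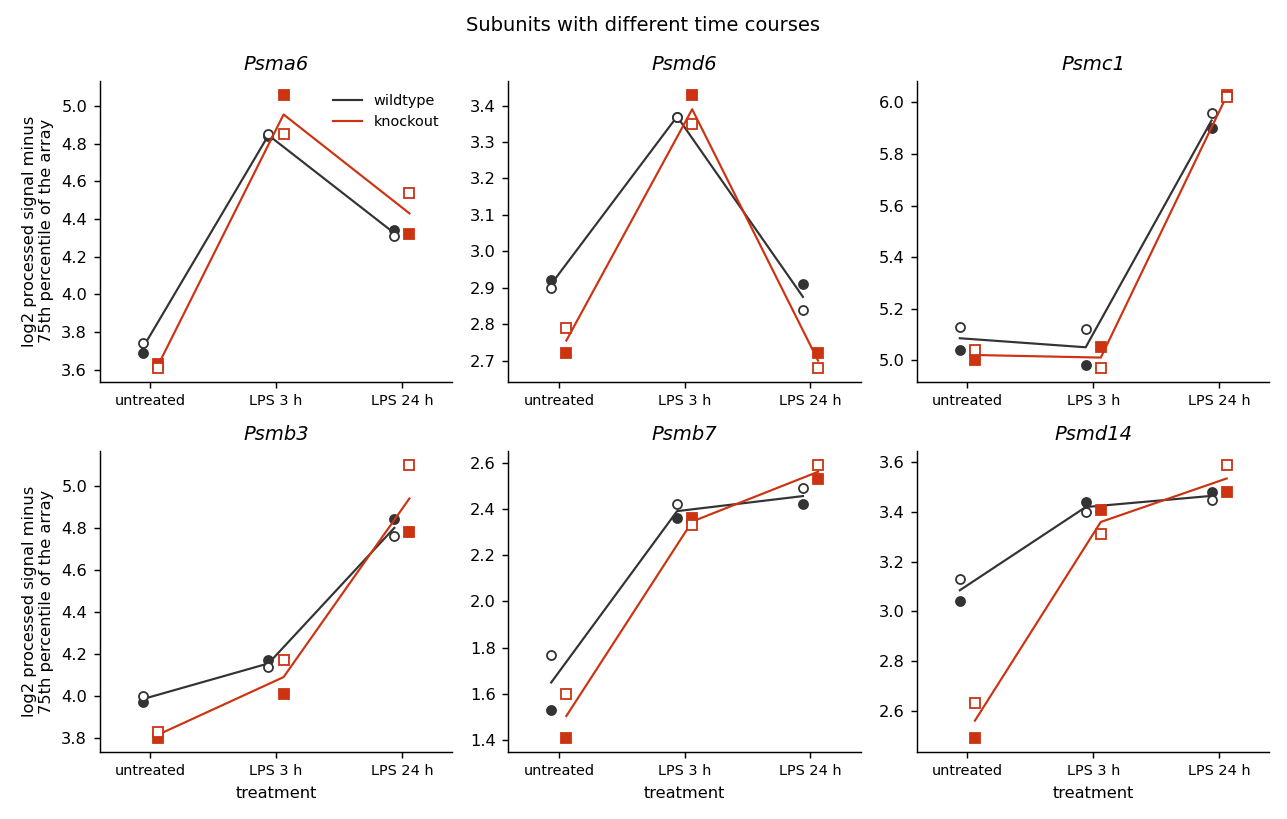
Log2 level (processed signal minus the 75th percentile of the array) by treatment in each sample for 6 subunits that represent the time courses. Black circles are wildtype and red squares knockout, filled for replicate 1 and open for replicate 2, lines join group means, and each panel has its own scale. Psma6 and Psmd6 peak at 3 h, Psmc1 and Psmb3 climb after 3 h, Psmb7 is near its final level by 3 h, and Psmd14 starts lower in the knockout.

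Called differences between the genotypes were about as frequent among the subunits as among all genes. Without LPS 1 was higher and 2 were lower in the knockout of 39 (3.72% of all genes were higher and 3.02% lower), and the median difference was -0.14 against 0.04 over all genes. Of the 39 differences 34 were negative, but all were measured on the same 2 mice per genotype, so their signs are not independent. Psmd14 was 3.04 and 3.13 in wildtype and 2.49 and 2.63 in knockout cells, a difference of -0.53 ± 0.09 (adjusted p = 0.0191). Psmd8, another lid subunit, was 3.1 and 3.20 against 2.54 and 2.83 (-0.47 ± 0.11, adjusted p = 0.0495). Psme3 was higher in the knockout by 1.43 ± 0.35 (adjusted p = 0.049). The last 2 lie just inside the threshold. Without untreated knockout replicate 1 the Psme3 difference was 1.00 (adjusted p = 0.291), that of Psmd14 -0.46 (0.145) and that of Psmd8 -0.32 (0.306). None of the 3 was called when only the untreated groups were fitted, or without untreated wildtype replicate 2. Without untreated wildtype replicate 1, Psmd14 alone was called.

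With LPS, no subunit was called between the genotypes, and few of all genes were. At 3 h 0 of 39 passed in limma (1.66% of all genes), with 6 at an unadjusted p under 0.05 and a median of -0.05. At 24 h 0 of 39 passed (2.4% of all genes), with 2 at an unadjusted p under 0.05 and a median of 0.09. The largest difference with a small error was that of Psme1 at 24 h (0.36 ± 0.09, 95% interval 0.16 to 0.57, adjusted p = 0.0718), which was called (adjusted p = 0.0479) when only probes above background on all arrays were tested. Without knockout 3 h replicate 2, Psme3 was called at 3 h (1.31, adjusted p = 0.0355). Averaged over the 3 times for each mouse, 0 of 39 subunits and 0% of all genes passed, with 3 subunits at an unadjusted p under 0.05.

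The LPS response itself was compared between genotypes. At 3 h 0 of 39 subunits were called (0.0348% of all genes), with 3 at an unadjusted p under 0.05 and a median difference, knockout minus wildtype, of 0.10. At 24 h 0 of 39 were called (0.317% of all genes), with 7 at an unadjusted p under 0.05. The 24 h median difference was 0.19 against -0.05 over all genes, and 35 of 39 subunits had a positive difference. All 39 were measured on the same 2 mice per genotype, so their signs are not independent. These differences and those without LPS share the untreated samples, in which the subunits of the knockout read lower. Psmd14 had the largest positive one, 0.60 ± 0.13 (adjusted p = 0.0907), and with normexp background correction it was called (0.66, adjusted p = 0.0389). For 38 of 39 subunits the 95% interval of the 24 h difference lay within 1 log2 unit on either side of 0, Psme3 being the exception (-1.86 to 0.40).

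The inducible catalytic subunits, which replace Psmb5, Psmb6 and Psmb7 in the immunoproteasome, were set beside the standard ones. Psmb9 was at 2.89 and 2.92 without LPS, 4.11 and 4.09 at 3 h and 5.24 and 5.19 at 24 h in wildtype, a rise of 2.31 ± 0.09 (adjusted p = 3.45e-07). Psmb8 rose by 2.28 and Psmb10 by 1.98 at 24 h. The standard subunits they replace rose too, by 0.75 (Psmb5), 0.63 (Psmb6) and 0.80 (Psmb7). In the knockout the 3 inducible subunits rose by 1.97 to 2.39 at 24 h. Psmb8 at 3 h in wildtype read 2.9 on one array and 4.31 on the other, so its change there was not called (0.41 ± 0.36). Psmb9 was higher in knockout than in wildtype without LPS (0.51 ± 0.09, adjusted p = 0.0192) and at 24 h (0.45, adjusted p = 0.0421), while at 3 h the difference was 0.39 (adjusted p = 0.0591).

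Of 25 tested genes for assembly factors, accessory proteins and regulators of the proteasome, 6 were higher and 7 lower at 3 h in wildtype, and 9 higher and 6 lower at 24 h. In the knockout 12 were higher and 5 lower at 24 h. Of all genes, 23.2% were higher and 23.4% lower at 3 h in wildtype, and the 3 h counts were near these shares. At 24 h the shares of all genes were 23.6% higher and 26.4% lower in wildtype, and 26% and 31.5% in knockout. The median change of the 25 genes at 24 h was 0.01 in wildtype and 0.26 in knockout. Pomp, which matures the core, rose by 0.78 in wildtype and 1.17 in knockout at 24 h. Its partners in core assembly moved unequally: Psmg3 rose by 0.49 in wildtype, Psmg1 fell by 0.65 and Psmg2 fell by 0.74. Adrm1, a ubiquitin receptor of the base, rose by 0.61 at 3 h and 0.52 at 24 h. Nfe2l1, a transcription factor of proteasome genes, rose by 0.91 at 24 h, while its relative Nfe2l2 fell by 0.53. Ddi2, the protease that activates Nfe2l1, fell by 0.92 at 3 h and was not called at 24 h. Of 10 ubiquitin and unfolding genes, 6 were higher and 3 lower at 24 h in each genotype, beside the same 24 h shares of all genes. Ubb, which encodes ubiquitin, rose by 0.74 in wildtype, and Vcp, an ATPase that extracts proteins for degradation, fell by 0.43.

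The promoters of the subunits were searched for sites of factors known to act in these pathways. RefSeq windows of 300 bases, from 250 before to 50 after a start, were present for 33 of the 40 genes (build GRCm38.p6), and both strands were searched. The antioxidant response element TGACNNNGC, bound by Nfe2l1 and Nfe2l2, was in 6 of the 33 (18.2%) and in 14.0% of all 27025 genes. The interferon-stimulated response element, TTTC, any 2 bases and TTTC again, was in 4 of 33 (12.1%) and in 4.0% of all. The gamma-activated site TTCNNNGAA was in 1 of 33 (3.0%, against 9.6%), and the NF-kB site, searched by its usual consensus, in 6 of 33 (18.2%, against 9.6%). Psmd9, Psmd12 and Psme4 hold matches to more than 1 motif. A match is a description of letters only. 4 windows are shown with the match in capitals: that of Psme1 (interferon-stimulated response element, from base 9 to 18 counted from the start as 0), of Psma6 (NF-kB site, -70 to -61, in 1 of its 2 windows), of Psmb5 (antioxidant response element, -47 to -39) and of Psmb6 (antioxidant response element, -9 to -1). They lie at chr14:55578244-55578543 (+), chr12:55398575-55398874 (+), chr14:54617946-54618245 (-) and chr11:70525107-70525406 (+).
Psme1 promoter: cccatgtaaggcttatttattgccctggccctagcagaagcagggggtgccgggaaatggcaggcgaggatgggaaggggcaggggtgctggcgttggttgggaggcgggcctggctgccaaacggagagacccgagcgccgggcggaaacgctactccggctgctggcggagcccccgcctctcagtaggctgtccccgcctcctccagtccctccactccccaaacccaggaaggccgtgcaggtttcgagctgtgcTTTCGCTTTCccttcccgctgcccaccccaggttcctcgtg
Psma6 promoter: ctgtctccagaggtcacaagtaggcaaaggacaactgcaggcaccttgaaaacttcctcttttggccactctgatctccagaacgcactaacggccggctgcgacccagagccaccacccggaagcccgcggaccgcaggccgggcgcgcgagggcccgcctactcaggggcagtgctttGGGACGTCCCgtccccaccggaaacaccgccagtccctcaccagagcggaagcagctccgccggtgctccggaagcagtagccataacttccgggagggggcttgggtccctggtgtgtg
Psmb5 promoter: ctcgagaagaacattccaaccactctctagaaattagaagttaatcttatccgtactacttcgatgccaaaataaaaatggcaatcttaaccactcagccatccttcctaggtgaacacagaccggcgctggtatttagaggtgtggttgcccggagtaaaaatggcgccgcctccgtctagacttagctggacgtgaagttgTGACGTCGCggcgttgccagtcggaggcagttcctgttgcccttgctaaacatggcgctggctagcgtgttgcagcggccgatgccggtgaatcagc
Psmb6 promoter: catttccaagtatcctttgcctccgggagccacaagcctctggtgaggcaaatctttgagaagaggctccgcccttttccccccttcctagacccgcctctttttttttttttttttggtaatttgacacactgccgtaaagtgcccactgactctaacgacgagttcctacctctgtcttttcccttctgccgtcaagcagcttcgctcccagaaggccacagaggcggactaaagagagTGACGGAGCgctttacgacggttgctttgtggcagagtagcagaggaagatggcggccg

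Of the genes with an interferon-stimulated match, Psme1 rose by 2.06, Psmb3 by 0.81 and Psmd4 by 0.58 at 24 h in wildtype, and Psmd9 was not called. Psme2, which rose by 1.67, has no such match in its 2 windows. Of the genes with an NF-kB match, Psma6, Psmd11, Psmd12 and Psme4 were higher at 3 h in both genotypes. Psma7 and Psmd13 were not called at 3 h in either. Among all 39 tested subunits 21 were higher at 3 h in both genotypes. Psmd6, which peaked at 3 h like Psma6, has no NF-kB match. Of the genes with an antioxidant match, Psmb5, Psmb6, Psmd12 and Psme4 rose at 24 h in both genotypes, Psmc6 in the knockout alone, and Psmd9 was not called. Among all 39 tested subunits 31 rose at 24 h in both genotypes. These include Psma2, Psma3, Psma4 and Psma5, which hold no match to any of the motifs searched.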

How the data were processed

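RNA of 12 samples was labelled with Cy3 and measured on 12 single-colour Agilent arrays. Per the file headers, the deposited scanner files give a processed intensity per spot, background-subtracted and without scaling between arrays, as well as mean and background intensities. Per the submitters' processing notes, spots were read with Agilent Feature Extraction 10.7.3.1. The deposited table of values holds log2 numbers: 99.5% to 100% of bright probes equalled the array's own log2 signal minus a constant within 0.01, and its column medians ran from -4.5 to -4.3, so values were not centred per gene. Probe coordinates are mm9 as in the files.

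Control and outlier spots were left out, spots of a probe were averaged, and the 75th percentile of each array was subtracted from log2 processed intensity. Probes that no group measured well above background on both of its arrays were dropped, and 23005 genes were tested with limma 3.58.1 in R 4.3.3 (a mean per group, 12 arrays, 6 residual and 2.23 prior degrees of freedom, two-sided, Benjamini-Hochberg at 0.05). Genes without a value in a group were left out of its comparisons (at most 4 genes, no member). Values after ± are standard errors. Arrays give no counts, so their number, 2 per group, limits the precision. Scripts ran in Python 3.11.15. On simulated data for wildtype LPS 24 h against untreated (23005 genes, 100 changed by 0.5 and 100 by 1 log2), 16 and 60 were recovered, with 4 false calls among 80. Far fewer genes changed there than were called in the data (23.6% higher and 26.4% lower). That makes the Benjamini-Hochberg threshold stricter in the simulation, so its recovery does not carry over to the reported comparison.

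Within a genotype, each replicate number is 1 mouse, per the labels. Residuals of samples from the same mouse correlated with r of 0.12 to 0.35, and those of different mice with the same number in the 2 genotypes with r of -0.02 to 0.26. The pairing by mouse comes from the labels. Members, role classes and lists were chosen with earlier results of these data known. All 40 members may be named, and of each class those with the largest called change were given in full.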

Additional observations from a re-analysis of the deposited data

How the results depend on the processing

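Members are described from 2 mice per genotype, a time of LPS and its slide cannot be told apart, and a block for slide could not be fitted to LPS comparisons. A genotype comparison lies within 1 slide. The median standard error of an LPS change was 0.10 log2. Of 332 counts of called subunits recomputed under alternatives, 302 stayed within 1.5 times the reported count and 30 did not.

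With mouse as a block (replicate block), counts higher were 20 at 3 h and 31 at 24 h in wildtype and 23 and 35 in knockout with a fixed block, and 21, 31, 23 and 35 with a random block. Neither block changed a count by over 1.5 times.

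Quantile normalization gave 12 higher and 3 lower in wildtype and 3 lower in knockout at 3 h. It reversed Psmc2 (-0.25) and Psmc3 (-0.25) in wildtype and Psmc3 (-0.24), Psmd2 (-0.04) and Psmd4 (-0.31) in knockout at 3 h. Taking the percentile over probes detected on all arrays gave 16 higher at 3 h in wildtype where the all-gene median was -0.09 in place of 0.03. Normexp left 0 lower at 24 h in either genotype, gave 1 higher in the 24 h response difference, left no change of Psma8 from 3 h to 24 h in knockout (0.00), and shifted the all-gene median at 24 h from -0.04 to 0.18 in wildtype and from -0.07 to 0.22 in knockout. Of all called genes, 49.9% were higher at 3 h in wildtype, against 39% with that percentile, and 47.2% at 24 h, against 64.4% with normexp. Only probes above background on all arrays gave 0 lower at 24 h in both genotypes, 4 lower without LPS and 1 higher at 24 h in the knockout against wildtype. No filter, or the mean over probes, gave 0 higher and 1 lower without LPS. Fitting only the groups compared gave 0 higher and 0 lower there, and 11 higher from 3 h to 24 h in knockout.

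Leaving out 1 sample gave 12 to 18 higher at 3 h and 9 to 12 higher from 3 h to 24 h in wildtype. Between genotypes it gave 0 to 1 higher and 0 to 2 lower without LPS, and 0 to 1 higher at 3 h. The causes were not tested.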

Other observations

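The next protein-coding gene after Psma6 on its chromosome in RefSeq is Nfkbia, which encodes the NF-kB inhibitor and lies 70950 bases beyond Psma6. It was singled out after its values were seen. Its change in wildtype was 4.44 ± 0.11 at 3 h and 2.4 ± 0.11 at 24 h, and from 3 h to 24 h it fell by 2.04. In knockout the change was 3.90 at 3 h and 1.62 at 24 h, with a fall by 2.29. Psma6 shared the order of the 3 groups in both genotypes, at a smaller size (1.13 and 0.61 in wildtype). Of the other neighbours, among them Prorp, 1730 bases before Psma6, none was compared in this way. A link between Psma6 and Nfkbia was not tested.

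From 3 h to 24 h the chosen probes of 4 of 4 activators rose in both genotypes, by 0.43 to 1.10 in wildtype and by 0.47 to 1.22 in knockout. The second Psme4 probe, described above, was close to level there. Over all genes, 25.7% were called higher in this step in wildtype and 26.3% in knockout. Of the lid, Psmd7 and Psmd14 were not called in that step in either genotype, and Psmd6 fell.

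Several other genes of the ubiquitin and proteasome lists had courses of their own. Zfand2a, a proteasome-associated protein known from arsenite stress, fell by 1.60 at 3 h in wildtype and by 1.49 in knockout, and stood above its untreated level at 24 h (0.28 and 0.75). Uba6, a ubiquitin-activating enzyme, rose by 0.48 at 3 h and fell by 0.63 relative to untreated at 24 h in wildtype. Ubqln2, a shuttle for ubiquitinated proteins, fell by 1.12 at 24 h in wildtype and by 1.11 in knockout, while its relative Ubqln1 rose by 0.77 and 1.03.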
